A study of Mus musculus with 43 samples.

Results

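EKLF (erythroid Krüppel-like factor, encoded by Klf1) is a zinc-finger transcription factor of the red cell lineage that binds CACCC-type elements and activates genes for globin, heme synthesis, the red cell membrane and the cell cycle. The Nan (neonatal anemia) allele of Klf1 changes an amino acid in a DNA-contacting zinc finger, so that the altered factor recognises a changed set of DNA sequences. Nan/+ embryos carry that allele beside a normal one, and EKLF recovered from their livers can be the product of either allele.

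The regions described here were the narrowest EKLF regions called in Nan/+ fetal liver and not in WT fetal liver that lay inside genes of moderate length. A region was taken when it had the smallest width in the Nan/+ list, 176 bp, and overlapped no WT region by 1 bp or more. Its centre had to lie over 1 kb from both ends of every protein-coding gene and inside a protein-coding gene of at most 100 kb, the longest gene deciding where genes overlapped. Of 15564 Nan/+ regions 2477, or 15.9%, met this rule, against 24745 regions in the 2 lists together. Width, absence of WT overlap, position in a gene and gene length chose these regions, so those properties are given below only as a description. They are called narrow Nan-only regions in what follows, and the gene around each is called its host.

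Chromatin was immunoprecipitated with an antibody against EKLF from dispersed whole livers of E13.5 mouse embryos, a stage at which the liver is the main site of red cell formation. The first genotype was Nan/+, heterozygous for Klf1-Nan, with 3 ChIP libraries, and the second was WT for Klf1 from the same Nan strain, with 3 ChIP libraries. The series design describes these as biological triplicates of littermate livers, and the labels name the cells primary erythroid, a name that lists of positions cannot check. Each genotype had 1 list of called regions made from its libraries together, with depths of 72023512 to 100763687 tags per Nan/+ ChIP library and 74140385 to 103170594 tags per WT ChIP library. Each list was called against 2 distinct input libraries, of 85114268 to 97613537 tags in Nan/+ and 81522594 to 115944854 tags in WT. The lists give positions without a strength and without a value per library. No spread between replicates can therefore be attached to any difference between Nan/+ and WT, and a position missing from one list may still hold signal under its calling threshold.

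The rule narrowed the list in steps. The Nan/+ list held 8481 regions of 176 bp, of which 350 overlapped a WT region and 8131 did not. Among these 8131 regions, 750 had a centre within 1 kb of a gene end and 2303 lay outside every protein-coding gene. The remaining 5078 lay inside genes and divided almost evenly by gene length, into 2477 in genes of up to 100 kb and 2601 in longer genes. The selected regions covered 0.436 Mb and lay in 1822 of the 19095 protein-coding genes of up to 100 kb, which is 9.54% of them. Only 22 regions lay in more than 1 gene.

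The width limit was not a close call, whereas the other limits ran through a continuum. The next width in the Nan/+ list was 219 bp, found in 311 regions. The longest hosts inside the limit were Rbm6, Wipf1, Vmp1 and Arsg, of 99.8, 99.878, 99.979 and 99.998 kb, and the shortest genes outside it were Tut4, Abi1, Ndufs4 and Specc1l, of 100.006, 100.169, 100.3 and 100.364 kb. The regions nearest to a gene end lay in Serpinb6a, Ticam1, Urod and Triap1, 1002.5 to 1028.5 bases from it, and regions in Ripor3, Chd8, Hnrnpul1 and Tex22 missed the limit at 969.5 to 998.5 bases. The regions nearest to a WT region lay in Gpr155, Spindoc, Zfp217 and Fech, with 4, 7, 10 and 13 bases between the edges. Narrow regions in Cdr2, Brd2, Abcg1 and Ppp1r10 overlapped a WT region by 13, 26, 30 and 32 bases and were left out, and 72 regions were left out for such an overlap alone. Within 100 bases of a WT edge lay 12 of the selected regions, or 0.484%, and within 1000 bases 5.05%, so that few were the immediate flank of a WT call.

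The bases under some of the regions could be read from RefSeq promoter windows of GRCm38.p6, the assembly behind mm10, which run from 250 bases before to 50 bases after an annotated transcription start. Since gene ends were avoided, such a start is an internal or alternative one. Of the 2477 regions 26 overlapped such a window and 12 lay wholly inside one. The sequences below were chosen to show the range in those regions, first those with letters of the EKLF site CCNCNCCC (GGGNGNGG on the other strand) and then those without them. Each is written along the strand of the annotated gene, as far as the region lies before the start, with capitals where the letters of the EKLF site or of GATA (TATC on the other strand) match and a run of overlapping matches shown as a single run.
G430095P16Rik start in Nfix, chr8:84722834-84723009, plus strand: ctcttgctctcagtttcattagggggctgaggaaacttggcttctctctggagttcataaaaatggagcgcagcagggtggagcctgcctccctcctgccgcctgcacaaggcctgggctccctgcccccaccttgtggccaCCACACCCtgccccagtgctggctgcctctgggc
Pou2f2, chr7:25132479-25132654, minus strand: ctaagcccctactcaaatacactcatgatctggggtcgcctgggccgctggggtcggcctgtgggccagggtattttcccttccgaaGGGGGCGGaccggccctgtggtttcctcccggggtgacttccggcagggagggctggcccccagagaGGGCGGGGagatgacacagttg
Meig1, chr2:3419132-3419307, minus strand: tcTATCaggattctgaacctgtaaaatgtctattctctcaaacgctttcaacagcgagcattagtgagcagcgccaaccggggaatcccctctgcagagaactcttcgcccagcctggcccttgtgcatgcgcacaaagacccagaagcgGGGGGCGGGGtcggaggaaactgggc
Dcaf11, chr14:55560693-55560868, plus strand: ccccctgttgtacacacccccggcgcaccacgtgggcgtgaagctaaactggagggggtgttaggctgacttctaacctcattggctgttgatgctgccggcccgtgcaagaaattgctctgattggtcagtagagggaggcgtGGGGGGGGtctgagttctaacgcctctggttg
Ppp1r3g, chr13:35967770-35967905, plus strand: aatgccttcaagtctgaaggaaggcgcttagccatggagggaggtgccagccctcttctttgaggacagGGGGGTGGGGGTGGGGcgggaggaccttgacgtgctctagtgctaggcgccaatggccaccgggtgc
Ptprs, chr17:56462222-56462307, minus strand: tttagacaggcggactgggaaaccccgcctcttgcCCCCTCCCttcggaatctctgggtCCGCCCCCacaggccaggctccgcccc
Tmem39a, chr16:38562674-38562813, plus strand: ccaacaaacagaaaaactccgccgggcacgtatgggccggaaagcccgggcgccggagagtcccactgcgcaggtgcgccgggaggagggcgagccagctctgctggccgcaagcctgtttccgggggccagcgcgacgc
Otub2, chr12:103388520-103388681, plus strand: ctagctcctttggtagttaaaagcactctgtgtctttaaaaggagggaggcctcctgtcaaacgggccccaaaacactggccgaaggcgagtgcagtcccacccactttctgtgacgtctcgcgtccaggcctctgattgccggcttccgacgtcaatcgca
In Nfix, which encodes a nuclear factor I protein, the matched letters spelled the CACCC-type element itself, in a window that belongs to the noncoding gene G430095P16Rik. The match in Dcaf11, a substrate receptor of a ubiquitin ligase, was a run of G alone. In Pou2f2, the gene of the transcription factor OCT2, and in Ptprs, a receptor phosphatase, the 2 matches were separate, whereas in Meig1, a spermatogenesis gene, and in Ppp1r3g, a regulatory subunit of protein phosphatase 1, matches overlapped. Tmem39a, a transmembrane protein gene, and Otub2, a deubiquitinase gene, held neither motif.

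Letters of the EKLF site were present in 8 of the 12 regions that lay wholly inside a window, or 66.7%, against 39.5% of stretches of the same length taken from all 32851 promoter windows. GATA letters were present in 3 of the 12, or 25%, against 41.7% of those stretches. The median GC content was 62.8% in the 12 regions, with a range of 49.4% to 82.4%, against 52.8% in the stretches. No interval was computed for these shares of 12 regions, and their differences from the stretches were not tested. The EKLF letters are themselves rich in G and C, and how far base composition sets their count was not tested. A match of letters is not a binding site, and 12 regions at annotated starts do not stand for the 2477, whose bases were otherwise not analysed here.

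One region coincided with a microRNA gene. In Scd2, which encodes a stearoyl-CoA desaturase, the region chr19:44303141-44303316 held the whole hairpin of Mir5114 (chr19:44303171-44303231, plus strand), shown here because it was the single microRNA gene under the 2477 regions. RefSeq gives the hairpin and the mature strand, with the seed, bases 2 to 8, in capitals.
Mir5114 hairpin: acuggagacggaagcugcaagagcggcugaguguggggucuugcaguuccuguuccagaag
mmu-miR-5114: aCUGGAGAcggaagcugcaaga
Of the other annotated noncoding genes, a lncRNA overlapped 91 regions, or 3.67%, and a pseudogene overlapped 7. A single region touched an snRNA gene, within Wdhd1, and another a gene of the miscellaneous RNA class, within Cd47. Exons and introns were not used here, so no region is placed in either.

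Within their hosts the narrow Nan-only regions were spread nearly evenly. The median centre lay 50.0% of the way from the start to the end of its host, over the 2056 regions whose host had a known strand. The first 20% of the gene held 18.2% of them and the last 20% held 16.5%. Even placement was computed over all genes of up to 100 kb of known strand, hosts or not, at centres that could meet the rule. It would give a median of 49.9%, with 17.6% in the first 20% of the gene and 17.5% in the last. Wider Nan-only regions under the same rule on genes, of which there were 1533, had a median of 48.2%, with 19.3% in the first 20% and 17.4% in the last. Narrow Nan-only regions in genes over 100 kb had a median of 47.6%, with 20.2% in the first 20% of the gene and 17.9% in the last. Even placement was not computed for these longer genes, where the 1 kb left out at each end is a smaller share. WT-only regions, 1752 in all, leaned to the start, with a median of 40.7%, 27.8% in the first 20% and 12.6% in the last.

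**Figure D1:**
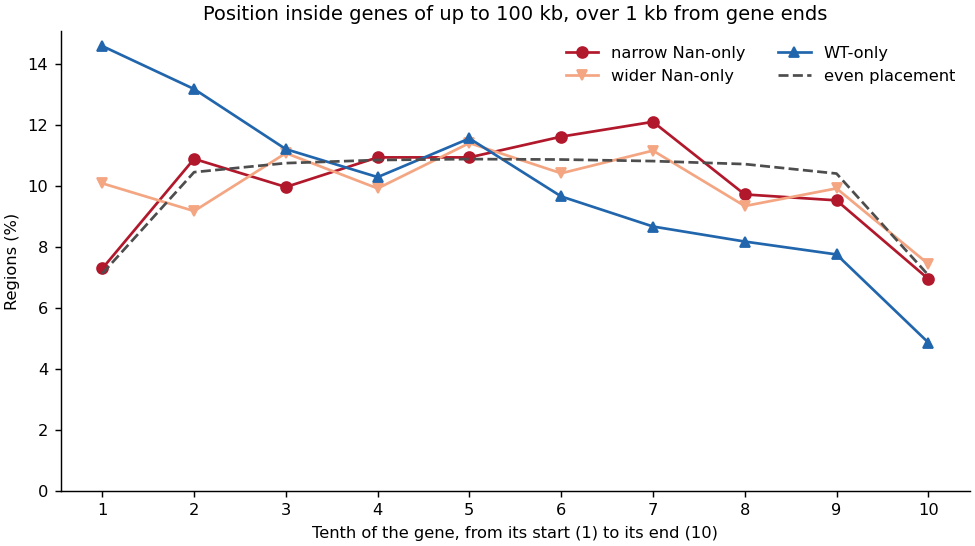
Share of regions (y axis, %) in each of 10 equal steps along the host gene (x axis, 1 at the start and 10 at the end) for narrow Nan-only, wider Nan-only and WT-only regions in genes of up to 100 kb, with the dashed line for even placement. The narrow Nan-only regions follow the even line, with 18.2% in the first 20% of the gene, whereas 27.8% of WT-only regions lie there. The rule keeps out the outer 1 kb of each gene, which lowers the outermost points.

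Closeness to annotated internal starts was compared as well. Of the 2417 narrow Nan-only regions outside chromosome 18, for which starts were not used here, 106 lay within 1 kb of an annotated start, or 4.39% (exact binomial 95% interval 3.60 to 5.28). Even placement in genes of up to 100 kb would give 2.11%. The share was 7.72% for wider Nan-only regions (6.41 to 9.21) and 16.6% for WT-only regions (14.9 to 18.5). Narrow Nan-only regions in genes over 100 kb had 1.76% (1.28 to 2.36), for which no even placement was computed. These intervals, and those given below, cover counting error alone and are too narrow for regions that cluster.

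Most hosts held a single region. Of the 1822 hosts 1409 had 1 narrow Nan-only region, 279 had 2, 78 had 3 and 28 had 4, while 28 had 5 or more. The 413 hosts with 2 or more made up 22.7% of hosts and held 43.1% of the regions. Neighbouring pairs in 1 gene numbered 655, with a median spacing of 10.8 kb and a smallest spacing of 313 bp, in Cul3, just above the minimum distance of 300 bp set in the calling. Hosts were long for the genes allowed, with a median of 44.1 kb and quartiles of 26.04 and 68.5 kb, against a median of 12.3 kb and quartiles of 4.39 and 27.2 kb for genes without such a region. The share of genes that were hosts was 1.12% below 10 kb, 5.36% from 10 to 20 kb, 13.2% from 20 to 40 kb, 22.4% from 40 to 60 kb, 31.8% from 60 to 80 kb and 38.3% from 80 to 100 kb. A longer gene offers more sequence. Densities by gene length and WT regions are therefore given per Mb of sequence in which a centre could meet the rule.

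The gene with the most was Bmp2k, which encodes a kinase first described as induced by BMP2. Its 93.4 kb on chromosome 5 held 11 narrow Nan-only regions among 20 Nan/+ regions, and 10 WT regions, and none of the Nan/+ regions overlapped a WT one. The 11 regions lay 0.497 to 8.48 kb from the nearest WT centre, the closest at chr5:97026700-97026875. Rab8b, a small GTPase of vesicle traffic, held 8 among 15 Nan/+ regions, 1 of them shared, and 4 WT regions. The 8 regions in Rab8b were 0.413 to 19.8 kb from the nearest WT centre, so that some lay beside WT calls and others far from them.

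The hosts with 7 were Cpeb4, Ago2 and Cul3. Cpeb4, an RNA-binding regulator of translation, held 7 among 17 Nan/+ regions with 4 WT regions. Ago2, the Argonaute protein that processes the erythroid microRNA miR-451, held 7 among 13 with 3 WT regions. Cul3, the scaffold of a ubiquitin ligase family, held 7 among 11 with 1 WT region. The genes with 6 were Kif2a, a microtubule-depolymerising kinesin, Nptn, an adhesion glycoprotein, Ptbp3, an RNA-binding splicing regulator, Btaf1, an ATPase that removes TATA-binding protein from DNA, Lrrc8c, an anion channel subunit, and Tet3, a methylcytosine dioxygenase. Each of these 6 had at least 1 WT region and at most 3. In Btaf1 the 6 were nearly all of its 7 Nan/+ regions, whereas in Lrrc8c and Tet3 they were 6 of 12.

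**Figure D2:**
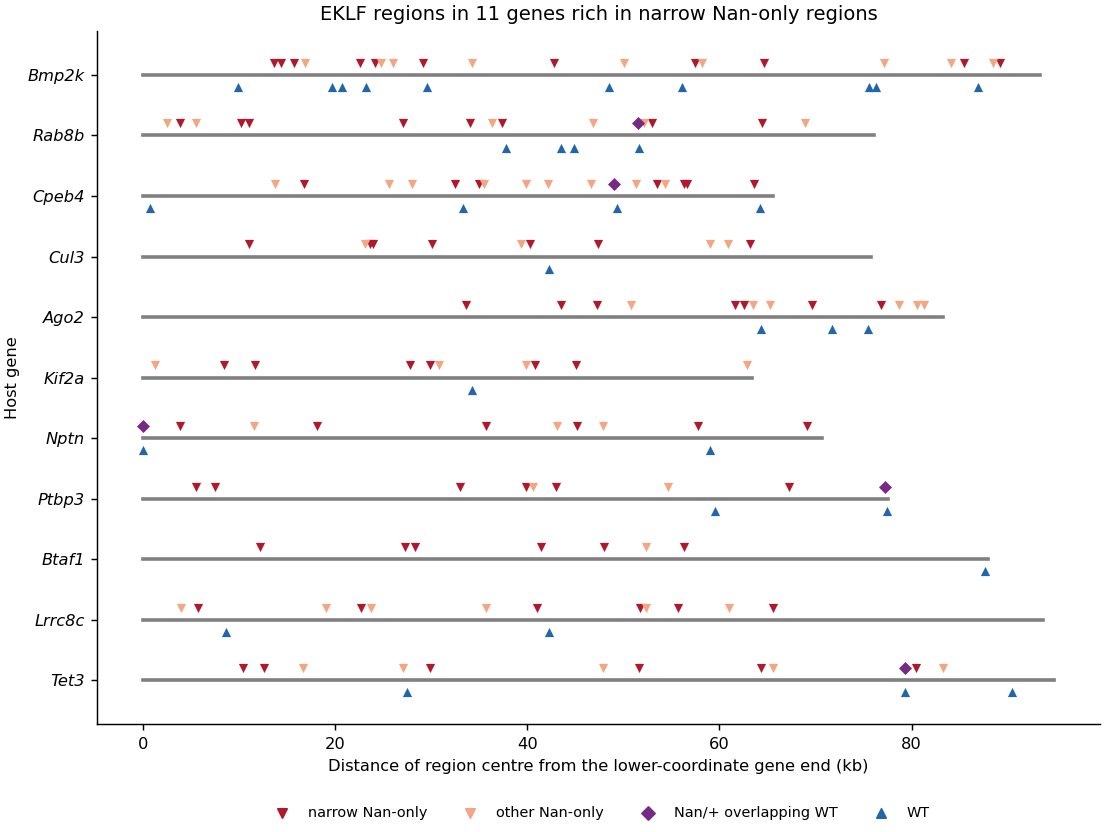
Positions of EKLF regions (x axis, distance of the region centre from the lower-coordinate gene end in kb) in 11 of the 12 hosts with the most narrow Nan-only regions (rows), with Nan/+ regions above each gene line and WT regions below it. Bmp2k, at the top, carries 11 narrow Nan-only regions along most of its 93.4 kb, and none of its Nan/+ regions overlaps one of its 10 WT regions, which lie along the same stretch. In Rab8b the 4 WT regions lie in 1 part of the gene, with Nan/+ regions on both sides. The genes were picked for their number of such regions.

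Per length, the densest hosts were shorter. Among hosts with at least 3 narrow Nan-only regions, Serinc3, a multipass membrane protein gene, led with 13.7 regions per 100 kb of gene, followed by Uros, uroporphyrinogen III synthase of the heme pathway, with 12.3 and Psap, the precursor of lysosomal saposins, with 12.01. Bmp2k followed with 11.8, Cpeb4 with 10.7, Rab8b and Rnf123 with 10.5 each and Ewsr1 with 10.2. Rnf123 encodes a ubiquitin ligase and Ewsr1 an RNA-binding protein. Ewsr1 held 6 Nan/+ regions and 0 WT regions. The other 7 of these genes had from 1 WT region, in Psap, to 10, in Bmp2k.

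Genes that EKLF occupied in WT carried more narrow Nan-only regions. A WT region was present in 763 of the 1822 hosts, or 41.9% (exact binomial 95% interval 39.6 to 44.2), against 14.4% of the genes of up to 100 kb that were no hosts, where 17.0% of all these genes held one. A wider Nan/+ region was present in 35.6% of hosts (33.4 to 37.9), against 9.41% of the genes that were no hosts, where 11.9% of all these genes held one. A Nan/+ region shared with WT was present in 14.7% of hosts (13.1 to 16.4), against 4.50% of the genes that were no hosts, where 5.48% of all these genes held one. The gap was also present within classes of gene length. Among genes of 80 to 100 kb a WT region was present in 49.6% of hosts (43.5 to 55.7), against 17.8% of the other genes (14.3 to 21.7), and among genes of up to 10 kb in 23.3% of hosts (14.8 to 33.6), against 9.17% of the other genes (8.53 to 9.84).

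The density per Mb gave the same picture. Genes with a WT region held 13.1 narrow Nan-only regions per Mb (exact Poisson 95% interval 12.4 to 13.9), against 4.44 per Mb in genes without one (4.198 to 4.69), and 6.53 per Mb overall. In genes with a WT region the density was 8.95 per Mb below 10 kb (5.47 to 13.8) and 15.5 per Mb from 80 to 100 kb (13.8 to 17.5). In genes without one it was 4.38 per Mb below 10 kb (3.39 to 5.56) and 4.87 per Mb from 80 to 100 kb (4.23 to 5.59). The length of the gene thus went with the density where a WT region was present and hardly where none was. Longer genes can hold more WT regions, and whether their number accounts for the trend with length was not tested.

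The density was higher the more WT regions a gene held. It was 4.44 per Mb with 0 WT regions, 10.3 with 1, 15.8 with 2, 24.3 with 3 or 4 and 28.1 with 5 or more, the last over 65 genes and 102 narrow Nan-only regions. Genes whose WT regions all lay within 1 kb of a gene end had 9.77 per Mb (8.81 to 10.8), and those with a WT region farther inside had 15.5 (14.5 to 16.6). Wider Nan-only regions went with WT regions more steeply, at 9.65 per Mb in genes with a WT region against 2.25 in genes without one, a ratio of 4.29, where the narrow Nan-only regions had a ratio of 2.95. In genes with 5 or more WT regions the ratio to genes without one was 18.2 for wider and 6.34 for narrow Nan-only regions. The 2 kinds come from 1 list, and the difference between their ratios was not tested.

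**Figure D3:**
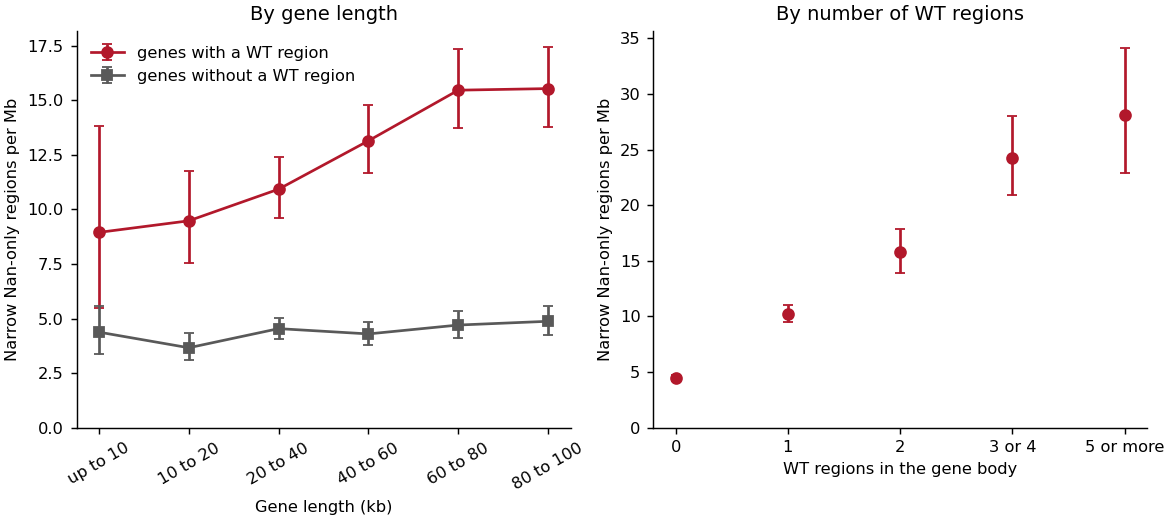
Narrow Nan-only regions per Mb of gene sequence (y axis) by gene length in kb (left, genes with a WT region above genes without one) and by the number of WT regions in the gene (right). Bars are exact Poisson 95% intervals for counting error. Genes with a WT region lie above genes without one in every length class, and the density runs from 4.44 per Mb with 0 WT regions to 28.1 per Mb with 5 or more.

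Many hosts nevertheless had no other call. In 1122 hosts, or 61.6%, the narrow Nan-only regions were the only Nan/+ regions, and in 797, or 43.7%, there was neither another Nan/+ region nor a WT region. Other calls were still more frequent in hosts than in genes that were no hosts. A WT region was present in 41.9% against 14.4%, and a wider Nan/+ region in 35.6% against 9.41%. Kit, the stem cell factor receptor of early erythroid cells, was of this kind, with 1 region at chr5:75633550-75633725. The nearest other Nan/+ region lay 290.6 kb away and the nearest WT region 931.9 kb away, so this call stood alone over a long stretch. It was an extreme case, since the 95th percentiles over the narrow Nan-only regions were 140.5 and 254 kb.

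Distances between regions were measured from centre to centre. The median distance of a narrow Nan-only region to the nearest WT region was 22.0 kb, and 446 of the 2477, or 18.0%, lay within 5 kb (16.5 to 19.6). Narrow Nan-only regions in genes over 100 kb were farther off, with a median of 51.0 kb and 10.6% within 5 kb, and wider Nan-only regions in genes of up to 100 kb were nearer, with 15.6 kb and 24.8%. To the nearest other Nan/+ region the median was 12.3 kb, and 689, or 27.8%, had one within 5 kb (26.1 to 29.6). The corresponding values were 12.9 kb and 28.5% for narrow regions in long genes and 7.63 kb and 39.1% for wider ones. The narrow regions in shorter genes thus lay nearer to WT regions than those in long genes, while their medians to the nearest Nan/+ region of any kind were close. The rule left out WT overlap and split these regions by gene length, so distances to WT are in part set by it. Even placement was not computed for these distances. Of the 689, the nearest Nan/+ region was another narrow Nan-only region of the same selection for 305, a wider Nan-only region for 253, a shared region for 109 and another narrow one for 22.

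**Figure D4:**
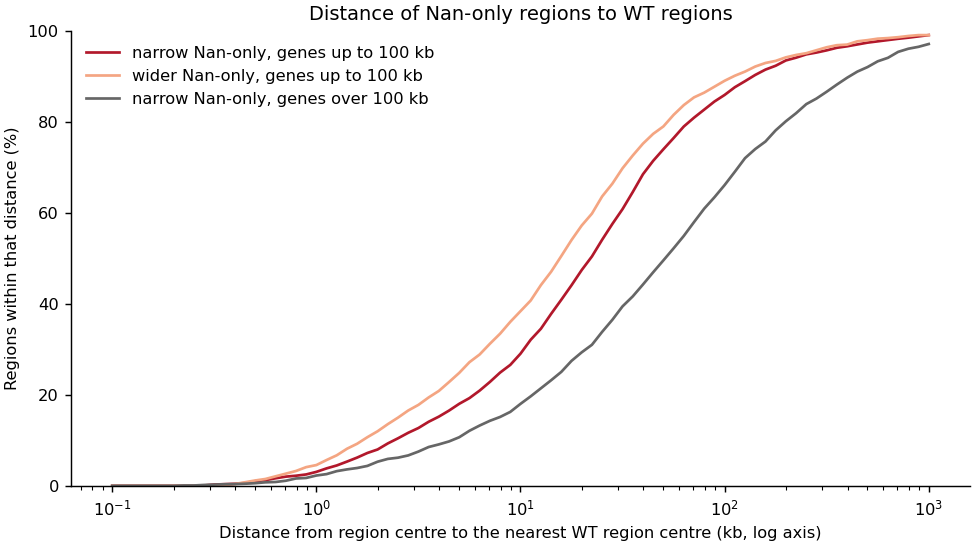
Cumulative share of regions (y axis, %) by distance from the region centre to the nearest WT region centre (x axis, kb, log scale) for narrow Nan-only regions in genes of up to 100 kb, wider Nan-only regions in such genes and narrow Nan-only regions in genes over 100 kb. The narrow regions of shorter genes lie between the others, with a median of 22.0 kb against 15.6 kb and 51.0 kb.

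The host genes were then read by function, using 17 gene lists of 324 entries that were chosen with earlier results of these data known. Of the 289 distinct list genes of up to 100 kb, 71 were hosts. The numbers below that take account of WT regions use their presence alone. How many WT regions a gene held, with which the density rose, was not matched. Each count is set beside the 9.54% of all genes of up to 100 kb that were hosts, beside the number of hosts that the list would have at the share of all genes in its length classes, and beside that number at the share of genes in the same length class and with or without a WT region alike (below, length with WT state). No test was made of any list.

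Genes of the red cell membrane and its cytoskeleton were hosts at 12 of 23, or 52.2%, where their length classes would give 3.74 and length with WT state 6.17. Add1, which encodes the actin-capping protein alpha-adducin, held 4, and Add2, beta-adducin, held 2. Tmod1, tropomodulin, which caps the short actin filaments of the red cell skeleton, held 3. Kcnn4, the Gardos potassium channel, and Xk, the carrier of the Kx blood group antigen, held 2 each. Among the hosts with 1 region were Slc4a1 (the band 3 anion exchanger), Gypc (glycophorin C), Tpm3, Tmod3 and Piezo1 (a mechanosensitive channel). The region in Slc4a1, chr11:102351104-102351279, lay 14 bases beyond the edge of a WT region, whereas the 4 in Add1 were 6.54 to 10.1 kb from the nearest WT centre. Of the 23 genes 20 held a WT region.

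Erythroid transcription factors and cofactors were hosts at 17 of 36, or 47.2%, where their length classes would give 4.78 and length with WT state 7.07. Foxo3, a forkhead factor of erythroid maturation, held 4, at 0.947 to 9.79 kb from the nearest WT centre, among 7 Nan/+ and 9 WT regions. Zbtb7a, encoding the globin repressor LRF, held 2 among 5 Nan/+ and 2 WT regions. Zfpm1, encoding the GATA1 cofactor FOG1, held 2 among 21 Nan/+ regions, 9 of them shared, and 20 WT regions, so narrow Nan-only calls were a small share there. Stat5b, Nr2c2, Ikzf1 and Bcl11a held 2 each. The 2 regions in Bcl11a, a repressor of embryonic globin genes, were its only Nan/+ regions and lay 62.1 and 73.6 kb from the nearest WT centre. The hosts with 1 region were E2f4, Mafg, Tcf3, Nfe2l2, Klf3, Sp1, Bach1, Sp3, Klf13 and Cbfa2t3, among which Klf3, Klf13, Sp1 and Sp3 encode factors with zinc fingers of the same family as EKLF.

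Heme synthesis genes were hosts at 4 of 15, or 26.7%, where their length classes would give 0.982 and length with WT state 1.80. Uros held 3 among 6 Nan/+ regions, none of them shared, and 2 WT regions, and its regions chr7:133704412-133704587 and chr7:133704824-133704999 were 0.412 kb apart. Urod (uroporphyrinogen decarboxylase), Fam210b (a mitochondrial protein of heme and iron metabolism) and Fech (ferrochelatase) held 1 each. The Fech region was the one 13 bases from a WT edge. Of the globin list 1 of 9 genes was a host, where length would give 0.221 and length with WT state 0.341. It was Nprl3, whose introns carry alpha-globin enhancers, with 1 region 1.52 kb from the nearest WT centre. The median length of the 9 genes was 1.41 kb. Most were thus too short to hold a centre over 1 kb from both ends, so this count was largely set by the rule. The class of up to 10 kb behind the numbers from length mixes such genes with longer ones. Iron handling genes were hosts at 2 of 17, where their length classes would give 1.89 and length with WT state 2.46, so that their count lay between the 2 numbers. The hosts were Tfrc, the transferrin receptor, with 2 and Slc11a2, an iron transporter, with 1.

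Erythropoietin and Kit signalling genes were hosts at 5 of 14, or 35.7%, where length would give 1.93 and length with WT state 2.43, with 1 region each in Epor (the erythropoietin receptor), Erfe (erythroferrone), Stat3, Jak2 (the kinase of that receptor) and Kit. Enucleation, autophagy and organelle clearance genes were hosts at 7 of 21, or 33.3%, where length would give 2.29 and length with WT state 3.13. Ube2o, a ubiquitin-conjugating enzyme that clears ribosomes in reticulocytes, held 2, and Trim10, Rac1, Ulk1, Riok3 and Atg5 were among those with 1. Glycolysis genes were hosts at 4 of 15, or 26.7%, where length would give 1.46 and length with WT state 1.85, with 1 each in Aldoa, Eno1, Bpgm (bisphosphoglycerate mutase of red cells) and Gpi1.

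Genes of RNA polymerase II pausing and elongation were hosts at 6 of 27, or 22.2%, where length would give 3.49 and length with WT state 3.67. They held 15 regions, and 9 of these lay in the elongation factor genes Ell, with 5, and Ell2, with 4. Ell had 0 WT regions and 6 Nan/+ regions, its 5 narrow ones 14.8 to 26.7 kb from the nearest WT centre, whereas Ell2 had 5 WT and 8 Nan/+ regions. Nelfa, a subunit of the pausing complex NELF, held 2, and Brd3, a bromodomain protein, and Aff4, a scaffold of the super elongation complex, held 1 each. Of the acetyltransferase and chromatin genes 4 of 15 were hosts, where length would give 3.18 and length with WT state 4.24, above the count. These were Smarca4, the ATPase of the BAF remodelling complex, with 3, and Smarcb1, Arid1a and Kmt2a with 1 each. Cell cycle genes were hosts at 4 of 29, where length would give 2.09 and length with WT state 2.94, with 1 each in E2f1, Rbl1, E2f3 and Ccnd3. E2f2, an S-phase regulator with 7 WT regions in its body, held 0, as did Klf1, Alas2 and Cd44. Hbb-bs and Hba-a1 held 0 by the rule, since at 1.41 and 0.815 kb they have no position over 1 kb from both ends.

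Markers of other liver cells were hosts at counts near those of their length classes. Hepatoblast markers were hosts at 2 of 15, where length would give 1.26 and length with WT state 1.32, among them Afp, alpha-fetoprotein, with 1 region among 7 Nan/+ regions and 2 WT regions. Megakaryocyte markers were hosts at 1 of 13, where length would give 0.898 and length with WT state 1.11, namely Itgb3, integrin beta 3, with 2. Lymphoid and stem cell markers were hosts at 1 of 11, namely Il7r, where length would give 1.21 and length with WT state 0.933. Macrophage markers were hosts at 0 of 12 (an exact binomial upper limit of 26.5%) and endothelial markers at 0 of 7 (41.0%), where length would give 0.871 for macrophage and 1.34 for endothelial markers, and length with WT state 0.679 and 0.998. Housekeeping genes were hosts at 2 of 15, where length would give 0.777 and length with WT state 0.938, with 2 regions in Tfrc and 1 in Sdha. Tfrc stands in the iron handling list as well, so its 2 regions are counted in both lists. With so few genes a list, a difference of 1 or 2 hosts between these lists is within counting error.

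**Figure D5:**
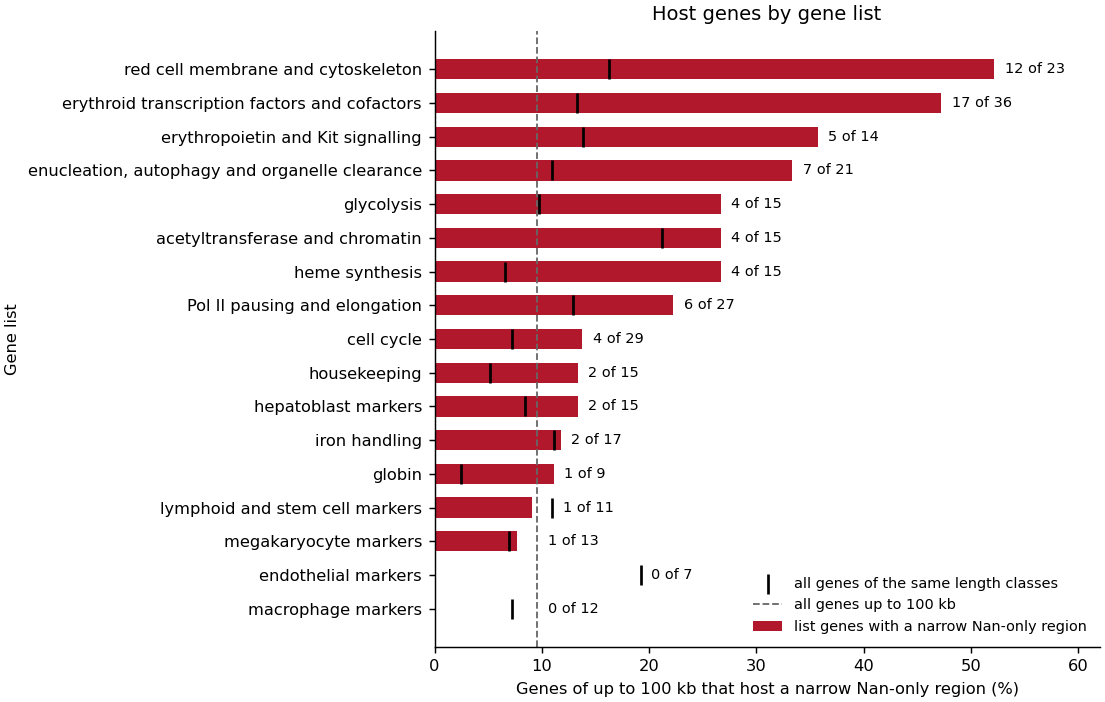
Share of genes of up to 100 kb in each gene list (rows) that host a narrow Nan-only region (x axis, %), with the number of hosts beside each bar, a black tick for the share of all genes in the same length classes and a dashed line at 9.54% for all genes. Red cell membrane genes (12 of 23) and erythroid transcription factors and cofactors (17 of 36) have the highest shares, and macrophage (0 of 12) and endothelial markers (0 of 7) the lowest.

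Along the genome the regions were most dense on chromosome 11, with 223 regions or 7.56 per Mb of genes of up to 100 kb (exact Poisson 95% interval 6.60 to 8.62), and least dense on chromosome X, with 43 or 2.62 per Mb (1.89 to 3.53). Chromosome 12 followed at the upper end, with 7.21 per Mb (5.96 to 8.64), and chromosome 14 at the lower, with 4.49 per Mb (3.54 to 5.61). By this measure the density over all chromosomes was 5.90 per Mb. The 6.53 per Mb given above divides instead by the sequence in which a centre could meet the rule. The interval of chromosome X lay below those of all other chromosomes, while most of the others overlapped. Wider Nan-only and WT-only regions on chromosome X, chosen by the same rule on genes, numbered 25 of 1533 and 29 of 1752. The narrow Nan-only regions had 43 of 2477, so a small share on this chromosome was common to these kinds.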

How the data were processed

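EKLF ChIP libraries of Nan/+ and WT E13.5 fetal liver were analysed from 1 deposited region list per genotype. Per the file headers, the authors called regions with HOMER on mm10 from 3 ChIP libraries and 2 distinct inputs, 1 input filling a second place, with a q of 0.01 and a fold of 4, and a DESeq2 step then required a log2 fold of 2 at a false discovery rate of 0.01. The size and minimum distance were 175 and 300 bp for Nan/+ and 125 and 250 bp for WT, per the file headers, so widths are not comparable between the lists. Which positions are called, and which overlap, can depend on these settings as well, and this was not tested. The name under which the Nan/+ list was deposited carries 125 and 250 instead, and the header was followed, since the smallest width in that list, 176 bp, lies next to its size. The score deposited by the authors was 1 in every row and was used only to check the files. Bowtie2 2.1, SAMtools 1.1, bcl2fastq 2.17 and deepTools 3.5 stand in the submitters' processing notes as well.

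Regions, positions counted from 1, were placed on 21519 protein-coding genes of the RefSeq GRCm38.p6 table, leaving out chromosome Y, mitochondrial and unplaced sequence and genes placed before 3 Mb. The strand was known for 17273 genes, from promoter windows, which were not used for chromosome 18. Computing used Python 3.11.15, pandas 2.3.3, NumPy 2.4.6, SciPy 1.17.1 and Matplotlib 3.10.9, and the scripts were tested on simulated lists. Densities per Mb divide by the sequence in which a centre could meet the rule. Those per chromosome divide instead by the merged length of genes of up to 100 kb. Intervals are exact Clopper-Pearson or Poisson at 95%.

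The regions and gene lists were chosen with earlier results of these data known, so no test was made. Genes were named by rule: the 12 hosts with the most regions, the 8 densest with at least 3, up to 4 hosts of each list, the genes at each limit, and the fixed genes Alas2, Bcl11a, Cd44, E2f2, Fli1, Hba-a1, Hbb-bs and Klf1. Fli1, at over 100 kb, could not be a host, and neither could Hba-a1 and Hbb-bs, too short for the distance from gene ends. Other named genes, among them the remaining list hosts and the genes with printed sequences, were chosen after their values were seen. Some genes that the rule names are not reported here.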

Additional observations from a re-analysis of the deposited data

How the results depend on the processing

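Of 28 alternative values 16 stayed within 1.5 times for counts or within the counting interval for shares and densities, and 12 did not. With a limit of 50 kb on the host, 1196 regions in 1038 hosts remained, and the other counts of regions ran from 2259 to 3382. Counting regions within 10 kb of either gene end, 64.1% of hosts had a WT region and 52.7% a wider Nan/+ region, and counting WT regions over 1 kb from gene ends alone, 26.5% had one. With 1 region per gene the median relative distance from the nearer gene end was 26.3% of gene length, against 27.6% over all regions. Another Nan/+ region lay within 2 kb of 13.48% and within 10 kb of 43.8% of the regions, and a WT region within 2 kb of 8.07% and within 10 kb of 29.1%. In genes with a WT region the density was 11.9 per Mb without genes of 5 or more narrow Nan-only regions and 11.1 per Mb without regions within 2 kb of a WT region, and in genes without one 4.31 and 4.37 per Mb, alternatives chosen after seeing the data. Looser and tighter distances change these values by construction. No paired analysis was possible because the libraries of a genotype were merged into 1 list, and for the same reason no library could be left out. The lists hold no tag counts, so low signal and absent signal look the same in them.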
